A study of Mus musculus with 24 samples.

Results

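Interferon-stimulated genes were followed by name through ribosome footprints and total RNA of resting mouse macrophages with and without APOBEC1. The 43 genes were taken from a list of symbols, and all 43 were among the 23337 gene symbols of the files. The rule used no measured value, but the list was chosen with earlier results of these data known. Marrow precursors of C57BL/6J mice aged 6 to 12 weeks had become macrophages over 7 days with M-CSF at 20 ng/mL, a cytokine that macrophages need to differentiate, and no interferon, microbial ligand or infection is named in the labels. The 6 Apobec1-/- cultures (KO) and the 6 wild-type cultures (WT) each gave 1 library of ribosome-protected fragments (footprints, the mRNA stretches covered by translating ribosomes) and 1 library of total RNA, 24 libraries in all. The labels describe the mice as littermates or matched by age. Batch 3 held KO5, KO6, WT5 and WT6, batch 2 held KO2, KO3, KO4 and WT4, and batch 1 held KO1, WT1, WT2 and WT3. Whether each culture had a mouse of its own is not in the labels, so p-values here speak only of the spread among these cultures, part of which may be technical.

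Type I interferon binds the receptor chains IFNAR1 and IFNAR2, which activates the kinases JAK1 and TYK2, and the complex ISGF3, of which IRF9 is the DNA-binding part, binds interferon-stimulated response elements (ISRE) before its target genes. The products bind or degrade viral RNA, block viral entry and budding, conjugate the ubiquitin-like protein ISG15, or, as with the guanylate-binding and immunity-related GTPases that interferon gamma also induces, attack the vacuoles of intracellular microbes. Resting macrophages are known for a low tonic level of this programme. APOBEC1 is a cytidine deaminase that changes C to U in RNA, and the study asked how it affects translation.

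Promoters are shown because interferon induces these genes through elements before their start. RefSeq promoter windows (GRCm38.p6) matched 32 of the 43 genes, and the 250 bases before the start were searched on both strands for the ISRE core, TTTC and TTTC with any pair of bases between them, and for TTCNNNGAA, the core of the GAS element found before genes that interferon gamma induces. The ISRE core stood in 20 of the 32 genes (62.5%), against 3.46% of the 27025 genes in the table and 3.39% of the 7902 tested in total RNA. The GAS core stood in 7 of the 32 (21.9%), against 8.13% and 7.2%. Capitals mark the ISRE core on either strand in the stretches that follow, and matches that overlap are joined. Each window lies before the start of a RefSeq transcript, and of the 10 stretches, those of Ifit3, Oas1a, Gbp3 and Irf7 reach into the span of the gene, which has an earlier start. The stretches of Irf7 and Ifi44, whose values carry the results on translation and on batches, hold no match, nor do their 250 bases, which says only that these letters are not in the window.
Isg15 (chr4:156200819-156200938, minus strand): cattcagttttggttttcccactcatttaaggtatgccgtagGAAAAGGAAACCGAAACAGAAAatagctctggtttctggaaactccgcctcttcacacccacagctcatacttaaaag
Ifit1 (chr19:34640769-34640888, plus strand): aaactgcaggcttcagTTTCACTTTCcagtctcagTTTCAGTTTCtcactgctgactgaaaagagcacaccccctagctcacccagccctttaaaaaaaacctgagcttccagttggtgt
Ifit3 (chr19:34583369-34583528, plus strand): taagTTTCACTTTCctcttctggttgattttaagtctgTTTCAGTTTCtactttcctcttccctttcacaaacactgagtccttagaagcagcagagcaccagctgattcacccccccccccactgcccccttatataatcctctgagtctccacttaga
Oas1a (chr5:120907526-120907585, minus strand): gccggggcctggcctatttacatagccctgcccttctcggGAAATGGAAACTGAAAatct
Oas1g (chr5:120887614-120887673, minus strand): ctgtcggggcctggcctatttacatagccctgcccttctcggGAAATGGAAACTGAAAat
Gbp2 (chr3:142620573-142620662, plus strand): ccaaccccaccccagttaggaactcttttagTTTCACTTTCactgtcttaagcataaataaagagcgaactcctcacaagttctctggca
Gbp3 (chr3:142559984-142560043, plus strand): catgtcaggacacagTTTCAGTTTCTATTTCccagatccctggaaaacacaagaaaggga
Irgm1 (chr11:48871421-48871480, minus strand): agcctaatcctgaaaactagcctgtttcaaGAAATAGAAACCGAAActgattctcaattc
Irf7 (chr7:141266425-141266544, minus strand): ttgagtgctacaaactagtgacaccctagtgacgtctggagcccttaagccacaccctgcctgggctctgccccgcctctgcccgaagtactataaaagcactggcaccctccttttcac
Ifi44 (chr3:151749911-151750030, minus strand): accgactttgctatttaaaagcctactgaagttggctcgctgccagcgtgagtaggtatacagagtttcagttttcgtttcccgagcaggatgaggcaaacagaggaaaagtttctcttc
In Isg15 the 3 matches ran into each other, and Ifit1 and Ifit3, both on chromosome 19, each held 2 separate matches. Oas1a and Oas1g were identical over a run of 56 of the 60 bases shown. These genes, the Gbp genes, the Irgm genes and the pair Ifi204 and Ifi205 belong to families of similar copies. Whether reads were shared between copies was not tested here, and their counts are given as uncertain. Reads of Rtp4, Stat2, Eif2ak2 and Cxcl10 can overlap those of a neighbouring counted gene.

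Counts in genes came to 5077478 to 12059361 per library of total RNA and to 29561 (WT6) to 3714912 (WT4) per footprint library. In the footprints of WT6, 3 counts were worth 101.5 CPM (counts per 1000000 counts in genes) before scaling, against 33.1 CPM in KO6, the next shallowest. The CPM of single genes below were taken over the genes tested and scaled between libraries. On that scale 3 counts were 82.15 CPM in WT6 and 32.55 CPM in KO6. Every one of the 43 genes had at least 3 counts in every total RNA library. In footprints 46 of 516 pairs of gene and library had under 3 counts, 42 of them among the 172 pairs of batch 3 and 21 in WT6. Apobec1 had fewer footprints in KO, 0 to 24.9 CPM, than in WT, 61.0 to 104.6 CPM, and more total RNA, 604.9 to 1278 CPM against 313 to 475 CPM. Of 10 macrophage markers 9 were in the files, and they summed to 15380 to 49290 CPM of total RNA, whereas 10 lymphocyte markers summed to at most 6.49 CPM and 9 dendritic cell markers to at most 11.6 CPM. Batch 3 stood apart in 2 measures that the labels do not mention: 4 Y-linked genes summed to 1 to 2 counts per total RNA library there, against 973 to 1563 in batch 2 and 2300 to 3572 in batch 1, and Xist had 172 to 386 counts there against 2 to 11 elsewhere.

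The 43 genes were all transcribed and took up a small part of each library. Together they held 0.406% to 0.890% of the counts in genes in total RNA and 0.490% to 1.02% in footprints. In total RNA, gene means over the 12 cultures ran from 2.44 ± 1.66 CPM (SD, n = 12) for Ifi205, a DNA-binding protein of the PYHIN family, to 572 ± 150.0 CPM for Slfn5, of the Schlafen family. These CPM are not divided by transcript length, so their order is not an order of transcript numbers. In bulk cultures a smaller number of responding cells and less RNA in each cell cannot be told apart.

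**Figure D1:**
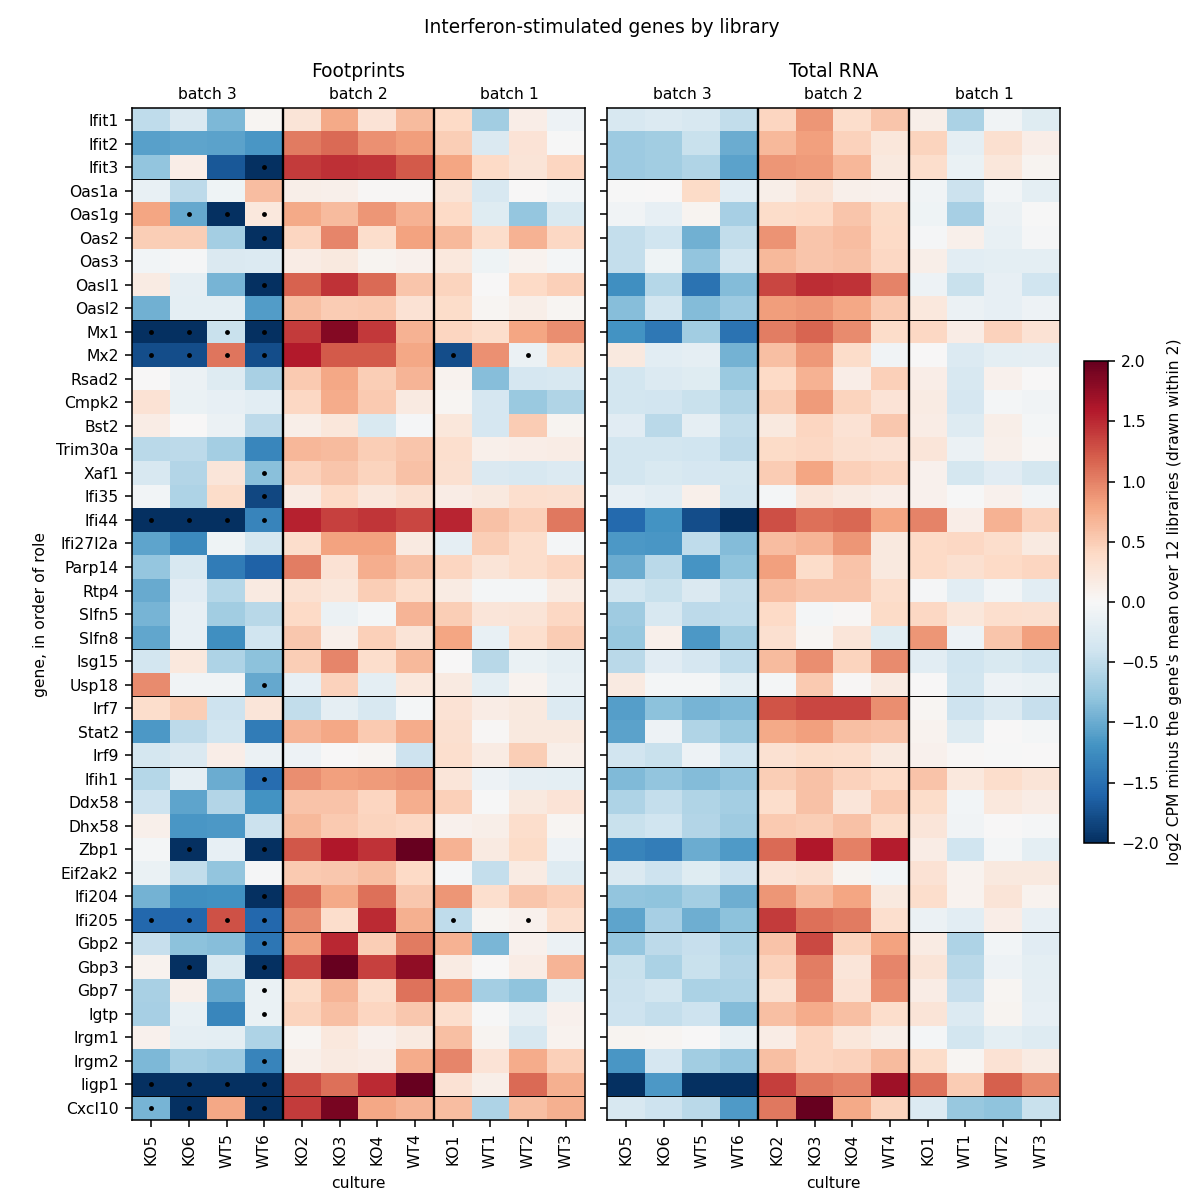
Deviation of each gene's log2 CPM from its mean over the 12 libraries, in footprints (left) and total RNA (right), with genes in order of role down the page and cultures across it (colour scale drawn within 2; a dot marks a footprint count under 3). Batch 2 is above the mean in nearly every row of total RNA, with 40 to 43 of 43 genes per library, and batch 3 below it, with 0 to 4 genes above.

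The first comparison set KO against WT in total RNA, with batch in the model. No interferon-stimulated gene passed the test: 0 of 43 were called by edgeR's quasi-likelihood test at an adjusted p under 0.05, 0 by DESeq2, and 12, all of them higher in KO, had an unadjusted p under 0.05. Over all 10942 genes tested 0.0183% were called and 4.68% had an unadjusted p under 0.05. The log2 fold changes were positive in 36 of the 43 genes and ranged from -0.09 to 0.67, with a median of 0.15 against -0.00163 over all genes. Both of the authors' deposited tables, whose libraries and direction are not given in the sources used here, listed 0 of these genes at an adjusted p under 0.05, with 43 listed in the table of all genes and 39 in the other, and each listed 1 gene in all at that level. Of the 6 monocyte markers all had negative log2 fold changes for KO over WT in total RNA (median -0.37), as did 9 of the 10 neutrophil markers tested (median -0.47), none of them called, and their part in the values above was not tested.

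The 3 smallest p-values belonged to Ifi44, Dhx58 and Oasl2. Ifi44, an interferon-induced protein, had a lowest, median and highest level of 19.5, 119 and 141 CPM in KO cultures, against 13.7, 71.5 and 100.1 CPM in WT cultures (n = 6 each). Its log2 fold change was 0.49 (SE 0.11, edgeR adjusted p = 0.551), and it passed with no filter on low counts (0.50, adjusted p = 0.0342). Dhx58 encodes LGP2, a helicase that tunes RNA sensing, and had 60.3, 107 and 123 CPM in KO, against 50.03, 80.01 and 107 CPM in WT. Oasl2, an oligoadenylate synthetase-like protein, had 119, 307 and 391 CPM in KO, against 117, 196 and 309 CPM in WT. The ranges of KO and WT overlapped for these genes, as they did for every one of the 43, where 0.0548% of all genes were higher and 0.0731% lower in KO without overlap. Log2 fold changes were 0.22 for Dhx58 (SE 0.07) and 0.27 for Oasl2 (SE 0.09), both with an edgeR adjusted p of 0.859.

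By role, the 3 IFIT genes, which bind viral RNA, were at 0.17 to 0.31 on the log2 scale, and the 6 oligoadenylate synthetase genes, whose products activate RNase L or sense RNA, had a median of 0.23. The 14 antiviral effectors were positive in 10 and the 7 nucleic acid sensors in 6, none of them called. Isg15 was at -0.02 (SE 0.11), and Cxcl10, a chemokine that draws T cells, had the highest value, 0.67 (SE 0.32, edgeR adjusted p = 0.859). Cxcl10 had 10.5, 17.7 and 74.9 CPM in KO as lowest, median and highest, against 6.25, 8.86 and 19.2 CPM in WT, and the highest value, that of KO3, stood well above the other 11 cultures.

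Genotype and batch were unevenly matched, since 3 of the 4 cultures of batch 2 were KO and 3 of the 4 of batch 1 were WT. Without a batch term the median log2 fold change of the 43 genes was 0.34 in place of 0.15, still with 0 called. Within batches, the KO minus WT difference in log2 CPM was positive for 28 of 43 genes in batch 3 (median 0.09), for 29 in batch 2 (0.16) and for 41 in batch 1 (0.23), the last of these resting on KO1 alone. A test of whether the genotype difference varied between batches called 0 of 43 genes by edgeR and 1 by DESeq2, with 3 at an unadjusted p under 0.05 (Ifi27l2a, Mx1 and Irf7), against 0.987% of all genes called by edgeR and 12.8% at an unadjusted p under 0.05.

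Footprints likewise gave no call for KO over WT. Of the 39 genes that passed the filter on low counts (Mx1, Mx2, Ifi205 and Iigp1 did not), 0 were called by edgeR and 0 by DESeq2, and 4, all higher in KO, had an unadjusted p under 0.05, against 0.0832% and 8.52% of 7208 genes. Log2 fold changes were positive in 31 of the 39, with a median of 0.16 against 0.01 over all genes. Of the monocyte markers tested in footprints, Ccr2 was at 0.74 (SE 0.29) and F13a1 at -1.40 (SE 0.53), neither of them called. Of 7 neutrophil markers tested in footprints all had negative values (median -0.84), and S100a8 (log2 -1.28, SE 0.23, edgeR adjusted p = 0.00838) and Mmp9 (-1.504, SE 0.31, adjusted p = 0.0335) were 2 of the 6 genes called among all genes. All 13 markers together summed to 66.3 to 867 CPM of footprints in KO, against 37.7 to 1068 CPM in WT, and their part in the values of the interferon-stimulated genes was not tested. The smallest p-values belonged to Ifi204 (log2 0.46, SE 0.15, edgeR adjusted p = 0.342), Oasl1 (0.58, SE 0.21, adjusted p = 0.397) and Cmpk2 (0.43, SE 0.16, adjusted p = 0.424). Oasl1 had 32.5, 67.3 and 105 CPM of footprints in KO as lowest, median and highest, against 0, 43.4 and 55.4 CPM in WT. Cmpk2, a mitochondrial nucleotide kinase, had 86.8, 122 and 159 CPM in KO, against 56.0, 78.5 and 107 CPM in WT. Ifi204, a PYHIN protein that senses nucleic acid, had 65.1, 274 and 345 CPM in KO, against 27.4, 204 and 227 CPM in WT. The lowest values rest on few counts, for Oasl1 on 3 in KO6 and 0 in WT6, and for Ifi204 on 6 in KO6 and 1 in WT6. KO and WT overlapped for each of these genes, as for all 39, where 0.208% of genes were higher and 0.0971% lower in KO without overlap.

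Within batches, footprints were higher in KO for 32 of 39 genes in batch 3, where 63.0% of all genes were. They were higher for 19 in batch 2, against 49.35% of all genes, and for 35 in batch 1, against 51.54%. The medians were 0.27, -0.004 and 0.32 on the log2 scale, against 0.24, -0.006 and 0.013 over all genes. The values of batch 2 rest on WT4 as the only WT culture, and those of batch 1 on KO1 as the only KO culture. Leaving out the 8 cultures whose footprint library was under 1000000 counts kept KO2, KO4, WT1 and WT4, so KO over WT then rested on KO2 and KO4 against WT4 alone, whose own spread could not be measured. In that fit edgeR called 8 of the genes, 3 higher and 5 lower, which is 18.6% of 43 against 14.5% of all 9725 genes tested. Without KO1, 1 gene was called, lower in KO, and the share of all genes called in that fit is not given.

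**Figure D2:**
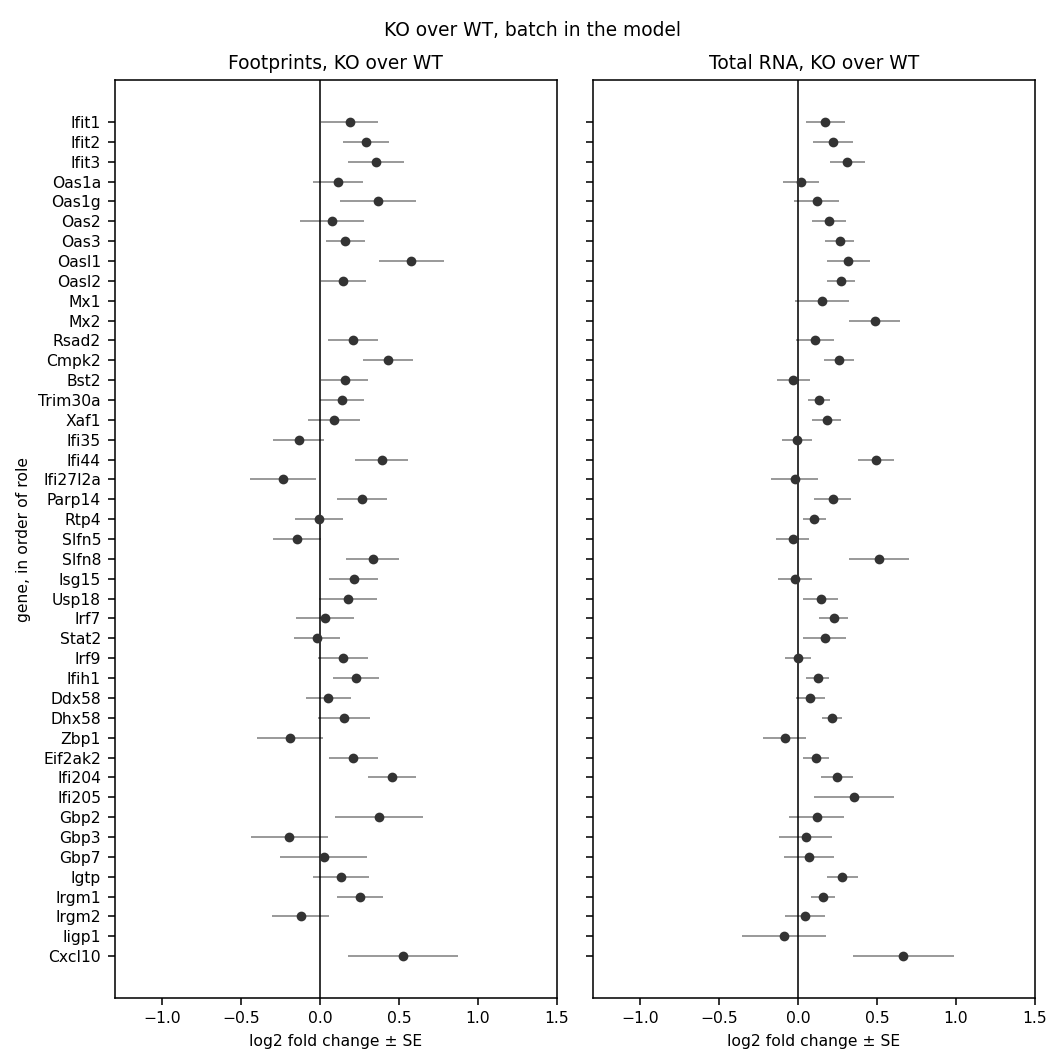
Log2 fold change of KO over WT with its standard error for each gene, in footprints (left, 39 genes tested) and total RNA (right, 43 genes tested), with batch in the model. Most points lie to the right of 0, 31 of 39 in footprints and 36 of 43 in total RNA, and none passed the test.

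The footprint to RNA ratio, which asks whether ribosome loading differed for a given amount of RNA, was positive in 18 and negative in 21 of 39 genes for KO over WT. Calls were 0 by edgeR and 0 by DESeq2, and 0 had an unadjusted p under 0.05, against 0.0139% of 7203 genes called and 2.51% at an unadjusted p under 0.05. The median was -0.03 on the log2 scale. The values ran from -0.26 for Gbp3 to 0.25 for Oasl1, and Isg15, Irf7 and Ifi204 were at 0.21 (SE 0.19), -0.22 (SE 0.19) and 0.21 (SE 0.17), each with an edgeR adjusted p of 1.00. The signs of the last 2 were not stable: Irf7 was at 0.20 without WT4, at 0.22 without batch 2 and at -0.73 (adjusted p = 0.525) without the cultures of shallow footprint libraries, where Ifi204 was at -0.04.

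Between batches the same genes differed widely. The 43 genes held 0.406% to 0.468% of the total RNA counts in the 4 cultures of batch 3, 0.710% to 0.890% in batch 2 and 0.573% to 0.702% in batch 1, with no overlap between batches. In footprints the shares were 0.490% to 0.560% in batch 3, 0.902% to 1.02% in batch 2 and 0.671% to 0.841% in batch 1, again without overlap. Both genotypes followed this order: the WT culture of batch 2 lay above all WT cultures of the other batches, and both KO cultures of batch 3 lay below all other KO cultures.

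**Figure D3:**
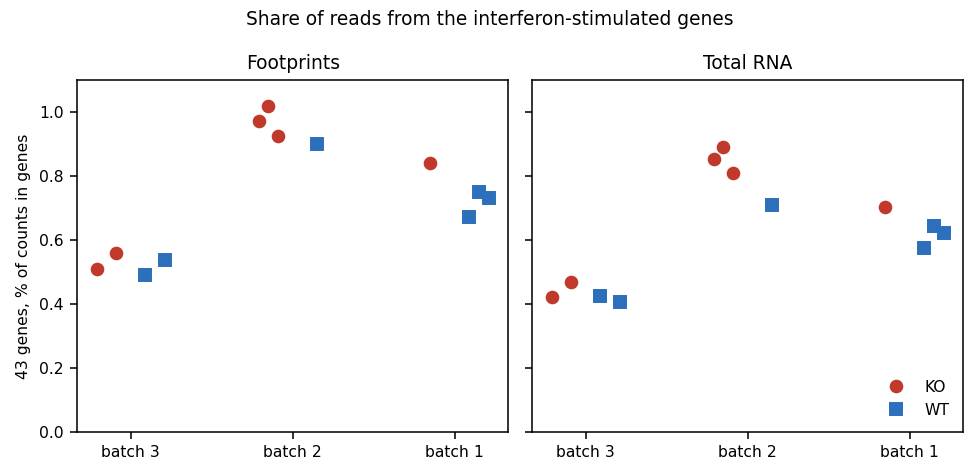
Share of all counts in genes that came from the 43 genes, as a percentage, for footprints (left) and total RNA (right) in each culture, by batch (circles, KO; squares, WT; one point per culture). Points of batch 3 lie at 0.406% to 0.468% in total RNA, below those of batch 2 and batch 1.

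In total RNA of batch 3 over batch 2, 40 of the 43 genes fell and 0 rose (edgeR, adjusted p under 0.05), where 24.5% of all 10942 genes were called lower and 24.7% higher. All 43 fold changes were negative, with a median of -1.15 on the log2 scale against 0.01 over all genes, and the libraries of the 2 batches did not overlap for 38 of the 43, against 20.7% of all genes lower without overlap. The 3 that did not pass were Oas1a (-0.08), Usp18 (-0.17), the protease that removes ISG15 and damps receptor signalling, and Irgm1 (-0.20). Of the roles, all 3 IFIT genes, all 14 antiviral effectors, all 7 sensors and all 3 transcription factors (Irf7, Stat2 and Irf9) fell, as did 5 of 6 oligoadenylate synthetase genes and 6 of 7 GTPases.

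Iigp1, an immunity-related GTPase that coats the vacuoles of intracellular parasites, had 0.423, 2.65, 0.907 and 1.34 CPM in batch 3, against 16.5, 13.1, 12.6 and 20.7 CPM in batch 2. Its log2 fold change was -3.54 (SE 0.35, edgeR adjusted p = 7.43e-06), from as few as 3 counts in a library. Ifi44 had 19.5, 24.9, 16.6 and 13.7 CPM in batch 3, against 141, 124, 128 and 100.1 CPM in batch 2, a change of -2.61 (SE 0.13, adjusted p = 2.10e-08). Both genes were several-fold lower in each batch 3 culture than in any culture of batch 2, whichever the genotype. Zbp1, a sensor of Z-form nucleic acids that can start necroptosis, had 17.9, 17.2, 22.5 and 20.6 CPM in batch 3, against 99.1, 138, 91.5 and 134 CPM in batch 2 (log2 -2.59, SE 0.17, adjusted p = 1.53e-07).

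Batch 3 was also lower than batch 1, with 30 of the 43 genes called lower and 0 higher, against 22.3% and 23% of all genes, and a median of -0.57 on the log2 scale. For 25 genes the 2 batches did not overlap, against 23.5% of all genes lower without overlap. Here Iigp1 (log2 -3.13, SE 0.36, edgeR adjusted p = 2.15e-05), Ifi44 (-2.35, SE 0.13, adjusted p = 5.97e-08) and Mx1 (-1.54, SE 0.19, adjusted p = 4.23e-05), a GTPase gene, had the largest changes. Mx1 had 16.2, 13.8, 23.3 and 13.4 CPM in batch 3, against 50.3, 41.7, 51.8 and 46.1 CPM in batch 1, without overlap. The 7 sensors all fell, while 3 of the 7 GTPases did and neither gene of the ISG15 system.

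Batch 2 in turn was higher than batch 1 for 22 genes and lower for 1, against 12.7% and 10.8% of all genes, with a median of 0.40 on the log2 scale, and 25 genes were higher without overlap, against 16.9% of all genes. Cxcl10 (log2 1.58, SE 0.38, edgeR adjusted p = 0.0127), Zbp1 (1.51, SE 0.16, adjusted p = 1.08e-04) and Oasl1 (1.45, SE 0.16, adjusted p = 1.08e-04) rose furthest. Cxcl10 had 29.5, 74.9, 23.9 and 19.2 CPM in batch 2, against 11.5, 8.20, 7.88 and 10.2 CPM in batch 1. Oasl1 had 56.8, 62.0, 61.3 and 44.4 CPM in batch 2, against 20.6, 16.3, 19.8 and 16.7 CPM in batch 1. Neither gene's batches overlapped. Of the oligoadenylate synthetase genes 5 of 6 rose, as did 5 of 7 GTPases, 3 of 7 sensors and 1 of 3 IFIT genes. Slfn8, of the Schlafen family, was the one that fell (log2 -0.74, SE 0.23, adjusted p = 0.0355), and its batches did overlap, with 226, 186, 213 and 152 CPM in batch 2 against 332, 168, 266 and 318 CPM in batch 1. Its call was lost in 8 of 16 alternatives, with no filter on low counts and without KO1, KO3, KO4, WT2, WT3, WT4 or WT5, at log2 values from -0.80 to -0.62. The call of Cxcl10 was lost with no filter (log2 1.57), without KO1 (1.41) and without batch 3 (1.51), with edgeR adjusted p-values of 0.0517, 0.0695 and 0.0674.

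Footprints of most genes followed the same order, with little depth in batch 3. Of 39 genes, 26 fell in batch 3 over batch 2 and 0 rose (11.7% and 10.9% of 7208 genes), with a median of -1.01. For 28 genes batch 3 lay below batch 2 without overlap, against 14.8% of genes. In batch 3 over batch 1, 16 fell and 0 rose (11.2% and 9.54%), with a median of -0.68. In batch 2 over batch 1, 12 rose and 0 fell (8% and 7.37%), with a median of 0.34. Leaving out WT4, the only WT culture of batch 2, gave 4 calls, 3 higher and 1 lower. The share of all genes called in that fit is not given, so these 4 cannot be set against it. In the fit of all cultures Gbp3 (log2 1.51, SE 0.26, edgeR adjusted p = 2.03e-04), Zbp1 (1.44, SE 0.22, adjusted p = 8.32e-05) and Rsad2 (0.91, SE 0.17, adjusted p = 4.49e-04) rose furthest. Without WT4, Zbp1 (0.81, adjusted p = 0.0510) and Rsad2 (0.59, adjusted p = 0.0886) did not pass. Rsad2 encodes viperin, which makes a chain-terminating nucleotide against viral polymerases, and had 188, 224, 183 and 209.5 CPM of footprints in batch 2, against 136, 71.1, 102 and 104 CPM in batch 1. Gbp3, a guanylate-binding GTPase, had 47.4, 76.8, 47.9 and 64.3 CPM in batch 2, against 19.9, 17.6, 19.8 and 29.3 CPM in batch 1. Zbp1 had 127, 163, 147 and 224 CPM in batch 2, against 86.2, 60.2, 69.2 and 49.2 CPM in batch 1. Batch 2 lay above batch 1 without overlap for each of these genes, and its highest value for Zbp1 was that of WT4.

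Ifi44 had the steepest fall in footprints, but batch 3 gave only 2, 1, 2 and 1 counts of it per library. Pooled over libraries that was 6 counts, 10.7 per 1000000 counts, against 2197 counts and 183 per 1000000 in batch 2, a ratio of 0.0584 (95% exact interval 0.0214 to 0.127, for counting error only). The fitted change was -4.08 (SE 0.37, edgeR adjusted p = 6.42e-10). Ifit3 fell by 2.31 on the log2 scale (SE 0.31, adjusted p = 1.37e-06), with 28.0, 54.2, 14.1 and 0 CPM in batch 3, against 132, 139, 135 and 117 CPM in batch 2. Gbp3 fell by 2.23 (SE 0.48, adjusted p = 7.65e-04), on 7 counts pooled over batch 3, a ratio of 0.240 to batch 2 (0.0959 to 0.497). Over batch 1, batch 3 was lower for Ifi44 (-3.80, SE 0.39, adjusted p = 9.41e-09), Ifi204 (-1.90, SE 0.23, adjusted p = 2.61e-07) and Ifit3 (-1.58, SE 0.34, adjusted p = 1.03e-03). Ifi204 had 79.2, 65.1, 65.7 and 27.4 CPM of footprints in batch 3, against 287, 194, 227 and 215 CPM in batch 1, without overlap. Iigp1 had 0 footprints in all of batch 3, against 237 counts in batch 2, at least 3.69-fold lower with the floor of 3 counts set over the group.

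The interferons themselves were at the edge of detection. Of 21 ligand genes 17 were in the files, they summed to 0 to 6 counts per total RNA library, and none passed the filter for testing. Of 8 receptors and kinases tested, 7 had negative log2 fold changes in total RNA of batch 3 over batch 2, and the eighth, Il10rb, was at 0.00 (SE 0.08). Their median was -0.50, where 51% of all genes had positive values. Ifnar1, a chain of the type I receptor, was at -0.44 (SE 0.09, edgeR adjusted p = 0.00101) and Ifngr1, which binds interferon gamma, at -1.11 (SE 0.14). Irf1, a factor that interferon gamma induces, rose in total RNA of batch 2 over batch 1 (log2 0.42, SE 0.11, edgeR adjusted p = 0.0171), and its footprints were at -0.39 (SE 0.18, adjusted p = 0.145).

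Among 10 inhibitors of the pathway 7 fell in total RNA of batch 3 over batch 2, where 24.5% of all genes fell and 24.7% rose, and Socs1, which blocks JAK kinases, rose in batch 2 over batch 1 (log2 1.28, SE 0.29, edgeR adjusted p = 0.0071) at levels of 1.16 to 4.14 CPM over the 12 cultures. Of 20 adaptors of nucleic acid sensing 14 fell and 3 rose in total RNA of batch 3 over batch 2. A further list of 71 interferon-induced genes had 57 tested, of which 46 fell and 2, Aim2 and Mlkl, rose. For KO over WT, 0 genes of any of these lists were called in total RNA, and in the further list 50 of 57 log2 fold changes were positive, with a median of 0.12.

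Other measures moved with the batches too. The 6 monocyte markers, none of them at 0 in any batch, summed to 167 to 220.4 CPM of total RNA in batch 3, 407 to 539.8 CPM in batch 2 and 111 to 158 CPM in batch 1. Neutrophil markers, 13 genes, summed to 442 to 592 CPM in batch 3, 153 to 591 CPM in batch 2 and 57.6 to 67.0 CPM in batch 1, where 3 of the 13 were at 0. In total RNA the 9 macrophage markers were all called lower in batch 3 than in batch 2, with a median of -1.54 on the log2 scale, and in footprints 8 were called lower and Cd68 higher (log2 0.72, SE 0.17, edgeR adjusted p = 0.00251). Reads outside any counted feature made up 4.32% to 5.53% of total RNA reads in batch 3, 14.2% to 19.2% in batch 2 and 8.46% to 10.7% in batch 1. The part of these measures, and of the Y-linked and Xist counts given above, in the batch differences was not tested. As they differ between the same groups of cultures as the interferon-stimulated genes, they cannot be told apart from the batch.

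Footprints over total RNA, the level of one against the other over the same cultures, differed for most interferon-stimulated genes, as for most genes. The fit held no term for the culture, so it did not pair the libraries. Of 39 genes 26 were called, 18 higher and 8 lower in footprints, against 71.4% of all 7203 genes called, 34.7% higher and 36.7% lower. The count of calls in both directions together is thus near that of all genes, but the directions are not. Positive log2 values made up 66.7% of the 39, against 49.4% of all genes, with a median of 0.19 against -0.01. Footprints were counted on coding sequence and total RNA on a region not given in the sources used here, so a ratio depends on the counted regions. Isg15, the ubiquitin-like modifier, was highest, with a log2 value of 2.27 (SE 0.10, edgeR adjusted p = 9.13e-18), with a ratio of 3.90 to 6.58 in every culture. Oasl2 (1.16, SE 0.08, adjusted p = 2.15e-13) and Xaf1 (1.15, SE 0.10, adjusted p = 3.31e-11), which promotes cell death, came next. Irf7, the factor that drives the later wave of interferon genes, was lowest, at -1.38 (SE 0.10, adjusted p = 2.00e-13). Ifit3 (-0.62, SE 0.12, adjusted p = 6.29e-05) and Trim30a (-0.50, SE 0.06, adjusted p = 7.46e-08), a RING-type TRIM protein, followed.

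**Figure D4:**
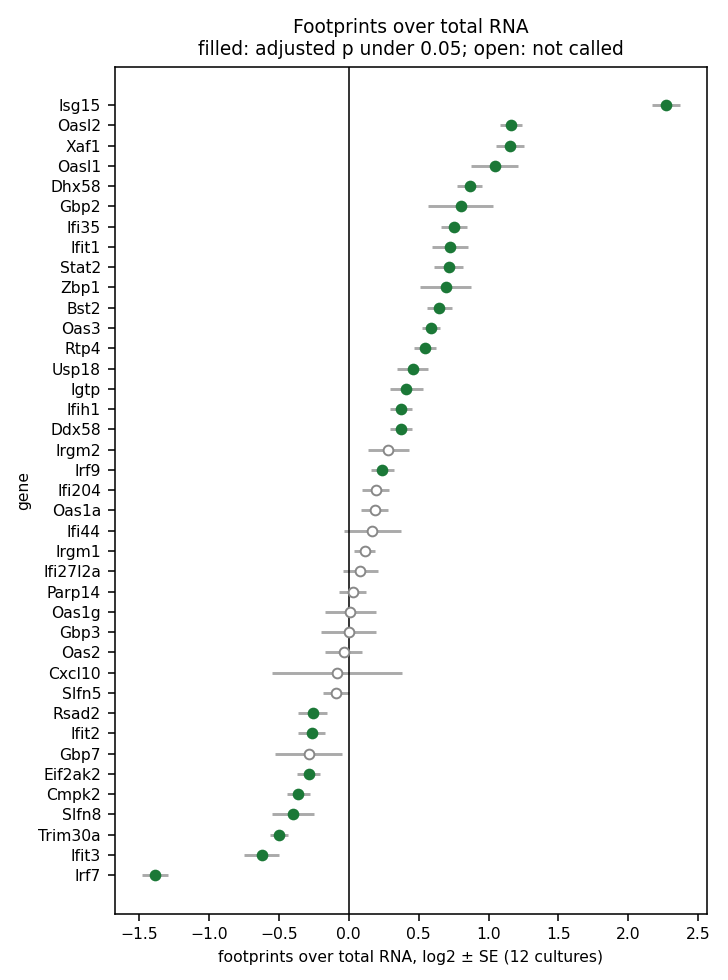
Footprints over total RNA on the log2 scale with standard errors for the 39 genes tested, over 12 cultures, with genes sorted by value (filled points, adjusted p under 0.05; open points, not called). Isg15 stands at the top at 2.27 and Irf7 at the bottom at -1.38.

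Of the 39 genes, Irf7 had the largest difference in ratio in batch 2 over batch 1 and in batch 3 over batch 2. Its total RNA was 82.2, 99.7, 92.0 and 95.6 CPM in batch 3, 420.3, 445, 448 and 338 CPM in batch 2, and 181, 132, 145 and 128 CPM in batch 1. Its footprints were 88.5, 97.6, 51.6 and 82.2 CPM in batch 3, 48.6, 60.8, 54.9 and 67.0 CPM in batch 2, and 84.5, 76.8, 79.1 and 56.6 CPM in batch 1. The batch with the most Irf7 RNA did not have the most footprints, and the footprints of the batches overlapped while the RNA did not. Total RNA of Irf7 was higher in batch 2 than in batch 1 by a log2 value of 1.38 (SE 0.11, edgeR adjusted p = 1.19e-05), while footprints were at -0.36 (SE 0.20, adjusted p = 0.217).

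The ratio of Irf7 footprints to RNA was 1.08, 0.980, 0.561 and 0.859 in batch 3, 0.116, 0.137, 0.122 and 0.198 in batch 2, and 0.467, 0.580, 0.544 and 0.441 in batch 1. Batch 2 lay below both other batches without overlap, KO and WT alike. As a log2 difference, the ratio was at -1.74 in batch 2 over batch 1 (SE 0.22, edgeR adjusted p = 8.50e-06) and 2.45 in batch 3 over batch 2 (SE 0.29, adjusted p = 3.90e-06). These comparisons of ratios between batches were added after the data were seen. Both calls for Irf7 held in all 18 and all 17 alternatives, with values from -2.20 to -1.54 and from 2.12 to 2.82. Batch 3 over batch 1 was at 0.71 (SE 0.28, adjusted p = 0.258). In the mouse, the protein of Oasl1 is known to bind Irf7 mRNA and hold back its translation. Oasl1 RNA was 7.86 to 14.8 CPM in batch 3, 44.4 to 62.0 CPM in batch 2 and 16.3 to 20.6 CPM in batch 1, so the batch with the most Oasl1 RNA had the lowest Irf7 ratio. Its part in that ratio was not tested. In batch 3 the footprints of Irf7 rest on 19, 9, 11 and 3 counts.

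**Figure D5:**
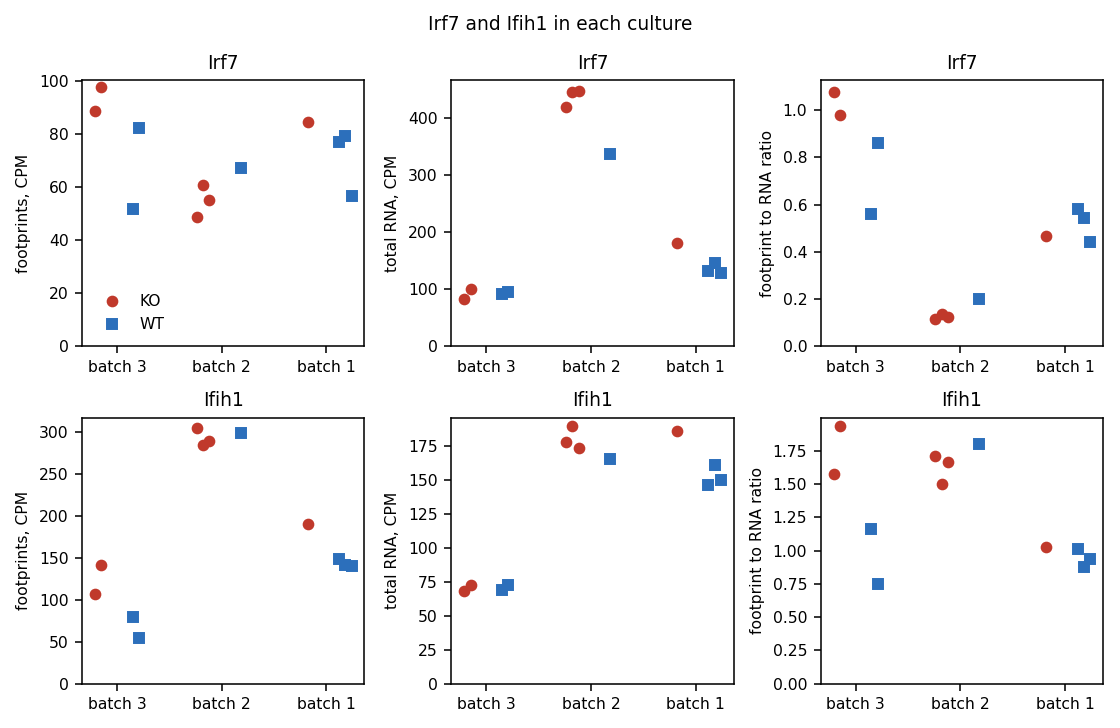
Footprint CPM, total RNA CPM and their ratio for Irf7 (top) and Ifih1 (bottom) in each of the 12 cultures, by batch (circles, KO; squares, WT). The ratio of Irf7 in batch 2 lies at 0.116 to 0.198, below every culture of batch 3 and batch 1, while that of Ifih1 in batch 2 lies at 1.5 to 1.8, above every culture of batch 1.

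In batch 2 over batch 1, 7 of 39 ratios were called (17.9%), against 16.7% of 7203 genes, 8.26% higher and 8.41% lower. This share is near that of all genes, so the count is no result about the interferon-stimulated genes, and the values that follow describe single genes. Ifih1 (log2 0.74, SE 0.16, edgeR adjusted p = 0.00214), which encodes the double-stranded RNA sensor MDA5, and Eif2ak2 (0.69, SE 0.18, adjusted p = 0.00948), the kinase PKR that halts initiation, were higher. Irf7, Oasl1 (-0.96, SE 0.26, adjusted p = 0.0111), Irf9 (-0.75, SE 0.18, adjusted p = 0.00634), Oas3 (-0.54, SE 0.16, adjusted p = 0.0208) and Irgm1 (-0.51, SE 0.18, adjusted p = 0.0493) were lower. With the culture as a block, since both libraries of a culture came from the same cells, 14 were called (35.9%), 5 higher and 9 lower, against 31.7% of all genes in that fit. The ratio of Ifih1 was 1.57, 1.94, 1.16 and 0.751 in batch 3, 1.71, 1.5, 1.67 and 1.8 in batch 2, and 1.02, 1.01, 0.879 and 0.933 in batch 1. The ratio of Irf9, the DNA-binding part of ISGF3, was 1.22, 1.33, 1.41 and 1.45 in batch 3, 0.893, 0.931, 0.963 and 0.778 in batch 2, and 1.42, 1.32, 1.7 and 1.29 in batch 1. Batch 2 lay above batch 1 for Ifih1 and below both other batches for Irf9, in each case without overlap.

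The ratio of Eif2ak2 was 0.94, 0.794, 0.58 and 1.12 in batch 3, 1.01, 0.992, 1.24 and 1.16 in batch 2, and 0.684, 0.575, 0.826 and 0.615 in batch 1. Oas3, an oligoadenylate synthetase, had 2.04, 1.6, 2.16 and 1.62 in batch 3, 1.07, 1.18, 1.06 and 1.22 in batch 2, and 1.62, 1.66, 1.84 and 1.69 in batch 1, and Oasl1 had 4.5, 2.19, 2.39 and 0 in batch 3, 1.52, 1.69, 1.36 and 1.25 in batch 2, and 2.49, 2.29, 2.49 and 3.13 in batch 1. Eif2ak2 was thus higher, and Oas3 and Oasl1 lower, in each culture of batch 2 than in any of batch 1. Irgm1, an immunity-related GTPase, had 0.988, 0.913, 0.957 and 1.11 in batch 2, against 1.65, 1.42, 0.966 and 1.34 in batch 1, with overlap, and its call held in 5 of 18 alternatives. Without WT4 the calls of Ifih1, Eif2ak2, Oasl1, Irf9 and Oas3 were lost, at values of 0.50, 0.56, -0.85, -0.60 and -0.57. In that fit 3 genes were called, all lower, and the share of all genes called in it is not given.

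In batch 3 over batch 2, 5 of 39 ratios were called (12.8%), against 9.97% of genes, 4.46% higher and 5.51% lower, and with the culture as a block 8 were (20.5%), against 17.5% of genes, so these counts too are near those of all genes. Irf7 and Oas3 (log2 0.62, SE 0.16, edgeR adjusted p = 0.0155) were higher, and Ifit2 (-0.88, SE 0.26, adjusted p = 0.0289), Trim30a (-0.52, SE 0.17, adjusted p = 0.0481) and Ifi44 (-1.52, SE 0.50, adjusted p = 0.0498) lower, the last from 6 footprint counts in batch 3. With median-of-ratios scaling the split of 2 higher and 3 lower became 4 higher and 1 lower. Ifit2 had a ratio of 0.663, 0.662, 0.547 and 0.745 in batch 3, against 1.12, 1.06, 1.18 and 1.29 in batch 2, and Trim30a had 0.616, 0.622, 0.573 and 0.403 in batch 3, against 0.846, 0.809, 0.788 and 0.842 in batch 2. Neither gene's batches overlapped. The calls of Trim30a, Ifi44, Ifit2 and Oas3 held in 4, 7, 11 and 14 of 17 alternatives. Leaving out KO5 left only Irf7. In batch 3 over batch 1, 0 ratios were called by edgeR and 0 by DESeq2 and 7 had an unadjusted p under 0.05, against 1.14% of genes called and 12.4% at an unadjusted p under 0.05, and 1 was called with the culture as a block, against 2.67% of genes.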

How the data were processed

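The deposited counts per gene symbol were made by the authors with HTSeq, per the submitters' processing notes, which also name Trim Galore, Bowtie 1.1.2, TopHat2 2.1.0, Cufflinks 2.2.1, DESeq, DESeq2 and build mm10. Footprints were counted on coding sequence, per the file names, and genes absent from a footprint file were taken as 0. For total RNA, the counted region and the use of strand are not given in the sources used here. Both of the authors' deposited tables hold a signal (mean normalized count), log2 fold changes, a test score and p-values, per the file headers, without their direction.

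From the counts, edgeR 4.0.16 (R 4.3.3) fitted quasi-likelihood models with TMM scaling, a filter at 10 counts and batch plus genotype, adjusted by Benjamini-Hochberg over all genes tested. A joint model of the 24 libraries gave the footprint to RNA ratio, in which molecule interacts with genotype and batch. CPM were scaled by TMM. DESeq2 1.42.0, other scaling, no filter, no batch term, replicate blocks and left-out libraries or batches were alternatives. Scripts were tested on simulated data. Intervals and the floor of 3 counts cover counting error only.

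The genes and lists were chosen with earlier results of these data known. Of the rule for named genes (those called, or the 3 largest rises and falls where over 10 were called, and the 3 smallest p-values for KO over WT), the part on levels per coding length was not applied, as no lengths were used. A culture pairs its 2 libraries by design. The same number in KO and WT does not mark a pair.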

Additional observations from a re-analysis of the deposited data

Results flagged for a closer look

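Of 164 sets of 6 KO or 6 WT values screened, 18 held a culture far from the other 5. A chance rate of about 1 in 20 sets supposes values of 1 batch and independent sets. Here each set spanned 3 batches and the sets shared libraries, so the count cannot be set against that rate. WT4, the only WT culture of batch 2, accounted for 13, WT6 for 3 and KO3 for 2.

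In total RNA, WT4 was highest of the WT cultures for Isg15 (115.6 CPM, next 48.49), Irf7 (337.8 CPM, next 145.3), Zbp1 (134.5 CPM, next 43.83), Oasl1 (44.4 CPM, next 19.83), Xaf1 (62.29 CPM, next 39.53), Gbp2 (79.19 CPM, next 43.35), Gbp3 (47.71 CPM, next 22.45), Gbp7 (67.76 CPM, next 36.43) and Cxcl10 (19.22 CPM, next 10.23). In footprints WT4 was highest for Isg15 (458.0 CPM, next 263.7), Zbp1 (224.3 CPM, next 69.21), Rsad2 (209.5 CPM, next 108.0) and Gbp7 (65.48 CPM, next 27.38). WT6 had the most footprints of Oas1a (191.7 CPM, next 126.5) and the fewest of Ifi35 (27.38 CPM, next 115.7) in WT, values of 7 counts and 1 count, and the least Mx2 RNA (6.701 CPM, next 10.85). KO3 was highest of the KO cultures in RNA of Usp18 (127.8 CPM, next 100.1) and Cxcl10 (74.89 CPM, next 29.48).

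The footprint to RNA ratio differed between batches for 12 pairs of gene and comparison, by the interaction term of the joint model, with 17.9% of the genes called in batch 2 over batch 1 against 16.7% of all genes, and 12.8% in batch 3 over batch 2 against 9.97%. In batch 2 over batch 1 the log2 differences were 0.7444 for Ifih1, 0.6888 for Eif2ak2, -1.744 for Irf7, -0.9633 for Oasl1, -0.7456 for Irf9, -0.5396 for Oas3 and -0.5064 for Irgm1. In batch 3 over batch 2 they were 2.451 for Irf7, 0.6228 for Oas3, -0.5225 for Trim30a, -0.8784 for Ifit2 and -1.523 for Ifi44.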

How the results depend on the processing

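Counts of called genes stayed within 1.5 times under most alternatives. No count of genes called between batches in total RNA, higher and lower together, changed beyond that. The count of lower genes in batch 2 over batch 1 rested on Slfn8 alone, whose call held in 8 of 16 alternatives. With no filter on low counts, total RNA of KO over WT had 1 call, genotype by batch 2 and the ratio of batch 3 over batch 2 had 3; DESeq2 gave 1 for genotype by batch. Without the 8 cultures of shallow footprint libraries, footprints had 8 calls for KO over WT, resting on KO2 and KO4 against WT4, and 19 for batch 2 over batch 1, resting on WT4 against WT1 once genotype is fitted. Without batch 1 the ratio of batch 3 over batch 2 had 3 calls, and without batch 2 that of batch 3 over batch 1 had 1. Shares of all genes are not given for most alternatives. The counts here and below thus show dependence on the processing and no excess over all genes.

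The replicate block was the culture for the ratios between batches, and gave 14 calls for batch 2 over batch 1, 8 for batch 3 over batch 2 and 1 for batch 3 over batch 1. With the same block the ratio of KO over WT had 0 calls. Pairing KO and WT by number left 0 calls for KO over WT in total RNA and in footprints. That pairing rests on a number alone, as correlations of same-numbered deviations ran from 0.0732 to 0.328 in footprints and from 0.0274 to 0.807 in total RNA.

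Leaving out 1 culture at a time, calls ranged from 0 to 1 for footprints of KO over WT, from 0 to 2 for genotype by batch, from 4 to 16 for footprints of batch 2 over batch 1, from 3 to 8 for the ratio of batch 2 over batch 1, and from 1 to 5 for that of batch 3 over batch 2. The Irf7 ratio of KO over WT ranged from -0.3455 to 0.2034 and was 0.2184 without batch 2 and -0.7284 without the shallow cultures, and that of Ifi204 was -0.03594 without the shallow cultures. The cause of these changes was not tested. Batch 3 comparisons of footprints and footprints over total RNA were not run without the shallow cultures, which would remove batch 3.

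Depth limits footprints of batch 3 most, where 42 of 172 pairs of gene and library had under 3 counts.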
